A study of Mus musculus with 8 samples.

Results

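The genes described here encode parts of the spliceosome, the machine that removes introns from pre-mRNA, and the SR and hnRNP proteins that guide it to its sites. They were chosen by symbol alone, as every gene of the deposited table whose name begins with Snrp, Sf3a, Sf3b, U2af, Prpf and a digit, Srsf and a digit or Hnrnp, together with Lsm1 to Lsm8. The rule found 72 of 13101 genes. All 72 passed the filter of a mean of at least 0.5 FPKM (fragments per kilobase of transcript, scaled between libraries). That filter left 12434 genes for testing. By name they fell into 12 snRNP proteins, 8 Lsm proteins, 9 SF3 subunits, 3 U2AF genes, 12 PRP proteins, 9 SR proteins and 19 hnRNP proteins. Genes of these families without a row in the table were not analysed here.

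The study measured polyadenylated RNA in mouse embryos at the 2-cell stage, with and without Dux, a transcription factor of the early embryo whose need for genome activation the study's title addresses. One group was Dux knockout (Dux KO) and the other wild type (WT), both on a C57BL/6 background, with embryos from timed matings and 4 samples in each group. Each sample was a pool of 12 to 18 embryos whose RNA was amplified as cDNA with a low-input kit before a Nextera XT library was made. The labels do not give the genotype of the parents, the kind of KO allele or whether pools came from separate litters, so p-values measure only the spread between these pools.

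The spliceosome is assembled on each intron from the U1, U2, U4, U5 and U6 small nuclear ribonucleoproteins (snRNPs). A ring of Sm proteins wraps the RNA of most snRNPs, and an Lsm ring holds U6. The SF3 complexes fix U2 at the branch point, and PRP proteins take part in the steps that lead to catalysis. SR proteins mostly help splice sites to be chosen and hnRNP proteins often oppose or redirect that choice. In the mouse, the 2-cell stage is when stored maternal RNA is being cleared and the embryo's own genome is first transcribed in bulk, so a pool holds a mixture of both kinds of RNA.

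Reads recovered from the gene table numbered 12343369 to 14548526 per pool. The table held 0 rows for Dux, so the labels could not be checked on the targeted gene. The internal part of MERVL, a retrovirus-like repeat known to be switched on by DUX, was read in FPM (fragments scaled between libraries). It was at 14081, 16381, 11359.6 and 13236 FPM in WT replicates 1 to 4 and at 4548, 5395, 6050.2 and 5785 FPM in Dux KO replicates 1 to 4. All 11 genes of a list of 2-cell and oocyte-derived transcripts had a row, with 2 called higher and 4 called lower in Dux KO, while 5 did not pass. Among those 5, Zfp352 was at 58.2 ± 17.1 FPKM in WT against 56.3 ± 13.8 FPKM in Dux KO. Zscan4c was at 1.68 ± 0.333 and 1.64 ± 0.693 FPKM, and Zscan4d at 16.7 ± 3.90 and 12.6 ± 7.46 FPKM (SD, n = 4 each). Of that list, Bmp15, an oocyte growth factor, was at 110.2 ± 27.7 FPKM in WT against 283 ± 98.2 FPKM in Dux KO, and Zp3, a protein of the egg coat, at 198 ± 20.03 FPKM and 91.5 ± 19.9 FPKM (SD, n = 4 each). Of 9 cumulus and granulosa cell markers, 4 had a row, and their summed level was 1.45 to 10.3 FPKM in WT against 5.68 to 20.99 FPKM in Dux KO, with Cyp19a1, the aromatase, called higher. Of 6 oviduct markers, 3 had a row, with sums of 129.8 to 149.8 and 96.8 to 138 FPKM, most of it Epcam, which was called lower. Ovgp1 and Krt18 did not pass but were highest in Dux KO replicates 1 and 2. Ovgp1 was at 11.7 and 22.0 FPKM there against 1.74 to 11.5 FPKM in the other pools. Krt18 was at 13.3 and 9.60 FPKM there against at most 4.71 FPKM. Among blood and sperm markers 0 of 5 and 0 of 6 had a row. The part of these differences between pools in the results below was not tested.

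Levels of most splicing genes were lower on average in the Dux KO pools, and 24 genes passed the test in that direction. With limma on log2(FPKM + 1) and a Benjamini-Hochberg adjusted p under 0.05 over all 12434 genes, 24 of the 72 were called lower, 1 was called higher and 47 did not pass. Among all genes tested, 18.1% were called lower and 15.5% higher. The median log2 fold change of Dux KO over WT was -0.38 for the 72 genes and -0.02 for all genes, on the log2(FPKM + 1) scale, which understates the change of low genes. A negative value was found for 58 of the 72, against 51.6% of all genes. In 28 genes the 4 Dux KO pools all lay below the 4 WT pools, which held for 18.1% of all genes, and in 3 they all lay above, which held for 15.0%. The 25 called genes covered SF3, snRNP, PRP, hnRNP, SR and Lsm proteins, and 0 of the 3 U2AF genes were among them, where 1 was lower at an unadjusted p under 0.05 and edgeR and DESeq2 called 0. Outside the Lsm genes 0 were higher at an unadjusted p under 0.05 with limma, and edgeR and DESeq2 called 0 higher there. In bulk RNA, fewer cells of a type and less RNA per cell cannot be told apart.

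**Figure D1:**
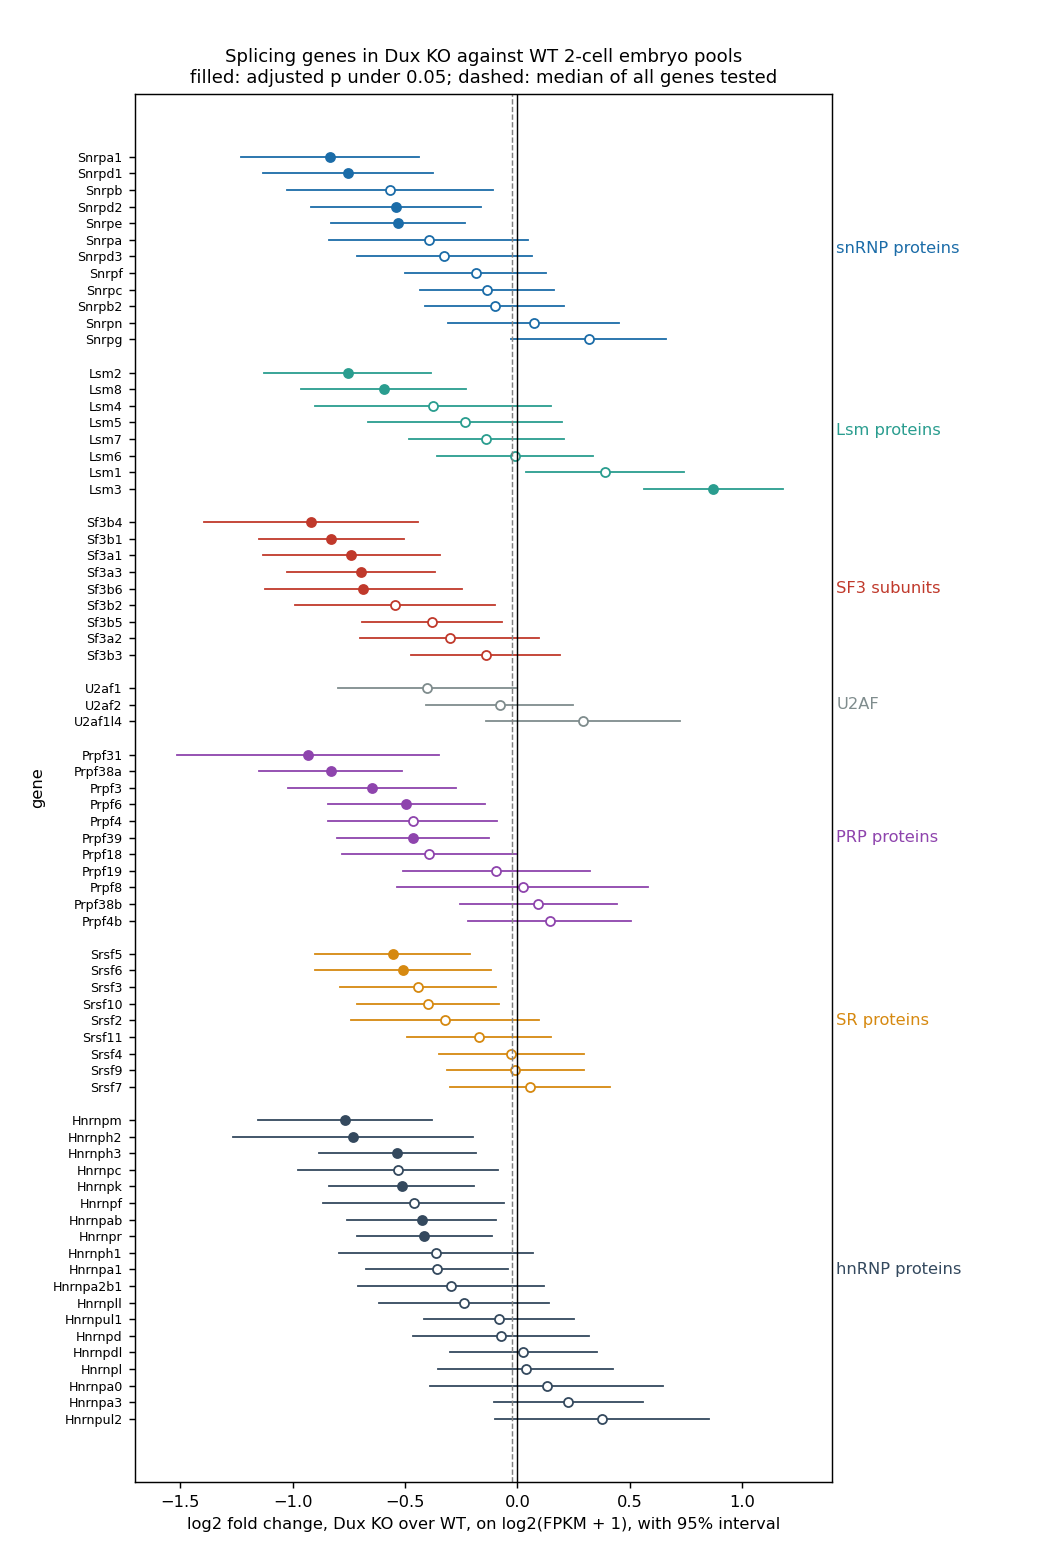
Log2 fold change of the splicing genes, all but 1 of the 72 (horizontal axis, Dux KO over WT on log2(FPKM + 1)) with its 95% interval, one line per gene and colours by role group. Filled points passed an adjusted p under 0.05, of which 24 lie left of 0 and 1, Lsm3, lies to the right; the dashed line is the median of all genes tested, -0.02.

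The number of calls varied with the tool, the scaling and the pools used. Fits with pools left out also have fewer residual degrees of freedom, so these settings are not alike. On recovered reads, edgeR called 31 of the genes lower and 2 higher where 17.7% and 16.4% of all genes were called, and DESeq2 called 32 and 2 where 19.5% and 18.9% were. The authors' deposited table gave 29 lower and 1 higher, against 18.6% and 16.2% of all its genes. After quantile normalization 16 were called lower and 3 higher, the latter Lsm1, Lsm3 and Snrpg, against 15.3% and 14.9% of all genes. Without WT replicate 3, WT replicate 4 or Dux KO replicate 1 the genes called lower numbered 14, 12 and 12, and the share of all genes called lower was 14.3%, 10.8% and 11.5%. Without both Dux KO replicates 1 and 2, 3 of the genes were called lower and 1 higher, and 3.62% and 2.86% of all genes. Without both Dux KO replicates 3 and 4, which leaves as many pools, 23 were called lower and 2 higher, and 16.9% and 14.8% of all genes. Snrpd1, Sf3b1 and Prpf38a among the lower genes, and Lsm3 as the higher one, were called in the same direction in all 20 alternatives.

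Abundant genes fell more often than rare ones over the whole table, and splicing genes were read against that. Of all genes with a mean of 0.5 to 5 FPKM, 8.60% were called lower, and 2 of 15 splicing genes were. From 5 to 20 FPKM the share was 21.5% of all genes and 9 of 24 splicing genes. From 20 to 80 FPKM it was 31.9% of all genes and 6 of 22 splicing genes. At 80 FPKM and above it was 41.0% of all genes and 7 of 11 splicing genes. The median log2 fold change in these 4 ranges was -0.09, -0.41, -0.35 and -0.57 for splicing genes, and 0.09, -0.11, -0.25 and -0.39 for all genes. Across the 72 genes, Spearman's rho between log2 fold change and log2 WT level was -0.32, and across all 12434 genes it was -0.37, as a description over genes measured in the same libraries. The WT level is itself a term of the fold change, so noise in the WT pools alone pulls this rho below 0. The same coefficient between log2 fold change and exon length was -0.02 across the 72 genes.

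**Figure D2:**
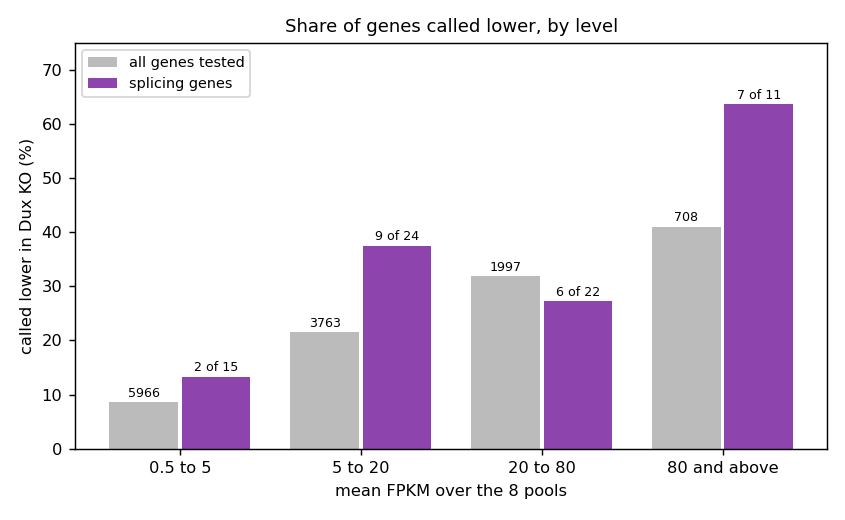
Percent of genes called lower in Dux KO (vertical axis) in 4 ranges of mean FPKM over the 8 pools (horizontal axis), for all genes tested (grey, number of genes above the bar) and for splicing genes (purple, genes called of genes in the range above the bar). Both kinds of bar are lowest from 0.5 to 5 FPKM and highest at 80 FPKM and above, where 7 of 11 splicing genes and 41.0% of all genes were called lower.

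Promoter sequence was available for a set of these genes. RefSeq windows on GRCm38.p6 matched 61 of the 72 genes by symbol, with 83 windows in all, and each was read over the 250 bases before the start site. The windows of Lsm3, Sf3b1 and Prpf38a are shown because these are the genes with a listed window whose calls held in all 20 alternatives, 1 higher and 2 lower. They lie at chr6:91515785-91516034 on the plus strand for Lsm3, at chr1:55027479-55027728 on the minus strand for Sf3b1 and at chr4:108579337-108579586 on the minus strand for Prpf38a, while GENCODE begins both Lsm3 and Sf3b1 inside the windows printed for them. They are printed in the direction of transcription, with capitals for a match to any of the motifs named after them.
Lsm3: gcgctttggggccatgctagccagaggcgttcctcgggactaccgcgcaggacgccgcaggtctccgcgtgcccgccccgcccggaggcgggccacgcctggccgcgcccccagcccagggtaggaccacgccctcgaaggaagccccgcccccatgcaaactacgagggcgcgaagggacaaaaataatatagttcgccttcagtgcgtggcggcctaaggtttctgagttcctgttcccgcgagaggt
Sf3b1: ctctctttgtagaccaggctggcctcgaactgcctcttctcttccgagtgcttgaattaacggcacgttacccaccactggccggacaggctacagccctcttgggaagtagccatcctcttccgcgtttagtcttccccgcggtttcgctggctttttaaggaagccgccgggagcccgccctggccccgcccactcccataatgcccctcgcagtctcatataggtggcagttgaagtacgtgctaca
Prpf38a: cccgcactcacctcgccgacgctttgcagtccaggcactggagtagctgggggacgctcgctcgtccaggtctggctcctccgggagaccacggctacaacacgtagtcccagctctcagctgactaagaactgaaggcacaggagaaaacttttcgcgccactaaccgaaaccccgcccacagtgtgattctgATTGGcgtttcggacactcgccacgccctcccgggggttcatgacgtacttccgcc
The motifs, searched on both strands, were CCGGAAG (a core bound by ETS factors), GCATGCGC (a core bound by NRF1), CCAAT (the box bound by NF-Y), TATAAA (the TATA box) and GATTNAAT (a core read by double homeodomains). The Prpf38a window held CCAAT in reverse orientation 56 bases before the start site, and the letters of the 5 motifs were not in the Lsm3 and Sf3b1 windows. CCGGAAG was in 27.7% of the 83 windows of splicing genes, 14.0% of 11513 windows of tested genes and 6.91% of all 32851 windows. CCAAT was in 44.6%, 36.6% and 33.8% of the same sets, GCATGCGC in 7.23%, 4.54% and 2.26%, TATAAA in 7.23%, 6.79% and 12.4%, and GATTNAAT in 2.41%, 1.16% and 1.81%. Among the 25 windows of genes called lower, CCGGAAG was in 20% and GATTNAAT in 0%. These are descriptions of letters and not of bound sites.

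The snRNP proteins comprise the Sm ring and proteins particular to U1 and U2. Of the 12, 4 (33.3%) were called lower and 0 higher, against 18.1% and 15.5% of all genes. Snrpe, the Sm protein E and the most abundant of the 72 genes in WT, was at 297, 332, 314 and 309 FPKM in WT replicates 1 to 4 and 187, 219, 235 and 227 FPKM in Dux KO replicates 1 to 4. All 4 Dux KO pools lay below all WT pools, and the log2 fold change was -0.53 ± 0.14 SE, adjusted p = 0.0149 by limma. Snrpd1, the Sm protein D1, was at 159, 167, 171 and 164 FPKM in WT replicates 1 to 4 and 102, 69.3, 118 and 109 FPKM in Dux KO replicates 1 to 4. Its WT pools lay close together while Dux KO replicate 2 was well below the other Dux KO pools, and the groups did not overlap, with a log2 fold change of -0.75 ± 0.17 SE, adjusted p = 0.00947 by limma. Snrpd2, its partner in the ring, was at 22.2, 21.9, 21.8 and 22.4 FPKM in WT replicates 1 to 4 and 15.02, 10.5, 17.6 and 17.5 FPKM in Dux KO replicates 1 to 4. It showed the same order of groups with a log2 fold change of -0.54 ± 0.17 SE, adjusted p = 0.0340 by limma.

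Snrpa1 (chr7:66059003-66074587, plus strand in GRCm38), a U2 protein that binds U2 RNA together with Snrpb2, was at 96.6, 106, 79.98 and 116 FPKM in WT replicates 1 to 4 and 60.3, 46.6, 70.9 and 45.9 FPKM in Dux KO replicates 1 to 4. The lowest WT pool, replicate 3, was still above the highest Dux KO pool, and Snrpa1 had the largest decrease of the 12, with a log2 fold change of -0.83 ± 0.18 SE, adjusted p = 0.00797 by limma. Among the other genes of U1 and U2, Snrpa, Snrpb2 and Snrpc did not pass, with log2 fold changes of -0.39, -0.10 and -0.14 and overlapping groups. The call on Snrpe was lost without Dux KO replicate 1 (adjusted p = 0.0541), with adjusted p of 0.00177 to 0.0732 over all alternatives. That on Snrpd2 was lost with any 1 of WT replicates 1, 2, 3 and 4 and Dux KO replicates 1 and 2 left out (adjusted p = 0.0589 to 0.0753), with adjusted p of 0.0183 to 0.228 over all alternatives.

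Of the 8 Sm genes 3 (37.5%) were called lower, against 18.1% of all genes, and Snrpg had values in the other direction. Snrpg, the Sm protein G, was at 104, 109.7, 112 and 102 FPKM in WT replicates 1 to 4 and 119.7, 176, 129 and 116 FPKM in Dux KO replicates 1 to 4. Its Dux KO pools all lay above its WT pools, with replicate 2 the highest, but the log2 fold change of 0.32 (95% interval -0.03 to 0.66) did not pass with limma (adjusted p = 0.135). The ratio of Snrpg to Snrpe, both in FPKM, was 0.330 to 0.355 in WT pools against 0.513 to 0.805 in Dux KO pools. This ratio was chosen after the values were seen and carries no test. Its groups could not overlap, as Snrpg was higher and Snrpe lower in every Dux KO pool than in any WT pool. Snrpb, the Sm protein B, was at 87.2 to 139.7 FPKM in WT against 53.1 to 90.0 FPKM in Dux KO, a log2 fold change of -0.57 that missed the threshold with limma (adjusted p = 0.0555) and passed in 7 of 20 alternatives (0.0185 to 0.252 over all of them), among them with any 1 of WT replicate 2 and Dux KO replicate 3 left out (adjusted p = 0.0437 to 0.0476). Snrpn, the paralogue of Snrpb that replaces it mainly in brain and is transcribed from the paternal allele, was at 31.3 to 49.1 FPKM in WT against 35.8 to 48.9 FPKM in Dux KO, with a log2 fold change of 0.07 (95% interval -0.31 to 0.45). The Snrpn to Snrpb ratio overlapped between groups, at 0.241 to 0.483 in WT against 0.478 to 0.717 in Dux KO. Snrpd3 and Snrpf did not pass, with log2 fold changes of -0.32 and -0.19.

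**Figure D3:**
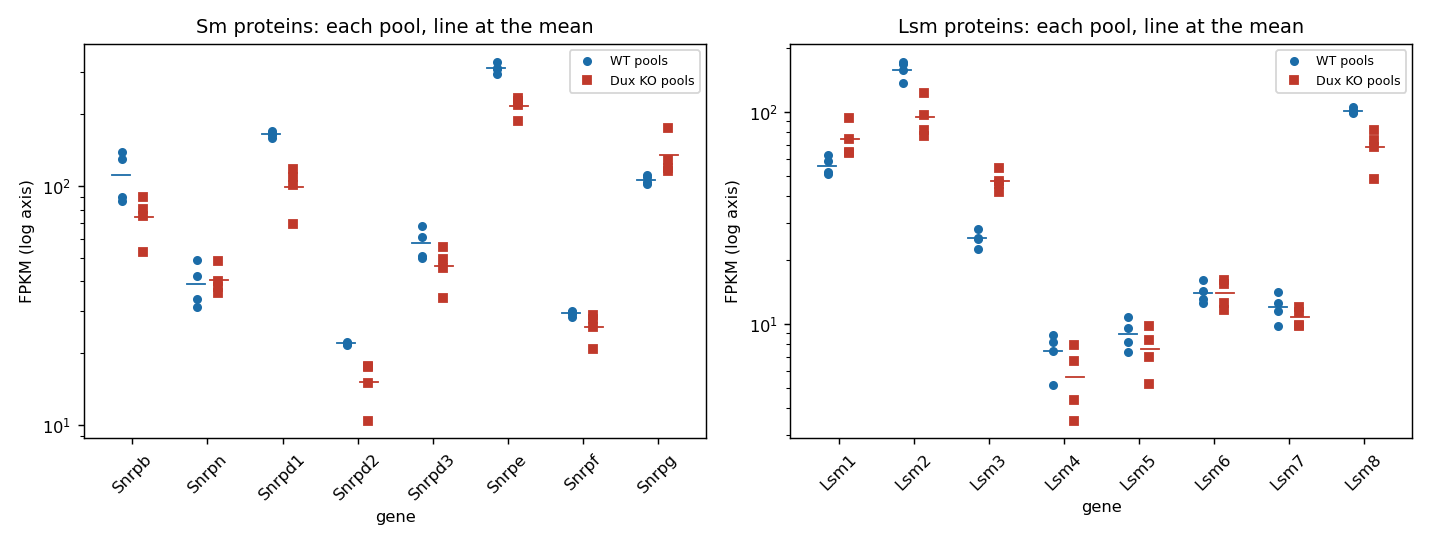
FPKM on a log axis for the 8 Sm genes (left) and the 8 Lsm genes (right) in each pool, WT as circles and Dux KO as squares, with a line at each group's mean. Squares lie below all circles for Snrpd1, Snrpd2, Snrpe, Lsm2 and Lsm8, and above all circles for Snrpg, Lsm1 and Lsm3.

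The Lsm proteins form a nuclear ring, closed by Lsm8, that holds U6 RNA, and a cytoplasmic ring, closed by Lsm1, that takes part in mRNA decay, while Lsm2 to Lsm7 belong to both. Of the 8 genes, Lsm2 and Lsm8 (25.0%) were called lower, against 18.1% of all genes, and Lsm3 was the only splicing gene called higher. Lsm3 (chr6:91515928-91522625, plus strand in GRCm38), whose promoter is printed above, was at 28.1, 25.0, 22.6 and 25.4 FPKM in WT replicates 1 to 4 and 45.5, 41.9, 47.1 and 54.1 FPKM in Dux KO replicates 1 to 4. The groups were far apart, with every Dux KO pool above 41 FPKM and every WT pool below 29 FPKM, and the log2 fold change was 0.87 ± 0.14 SE, adjusted p = 0.00304 by limma, higher in 4 of 4 pools. Over all alternatives its adjusted p was 2.20e-07 to 0.0205. Lsm2 was at 172, 157, 136 and 168 FPKM in WT replicates 1 to 4 and 82.1, 77.2, 122 and 96.4 FPKM in Dux KO replicates 1 to 4. Its highest Dux KO pool, replicate 3, was below its lowest WT pool, replicate 3, and the log2 fold change was -0.75 ± 0.17 SE, adjusted p = 0.00904 by limma.

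Lsm8 was at 102, 99.2, 98.8 and 105 FPKM in WT replicates 1 to 4 and 68.0, 48.4, 81.8 and 73.4 FPKM in Dux KO replicates 1 to 4. WT pools were close together, Dux KO replicate 2 was the lowest, and the log2 fold change was -0.59 ± 0.17 SE, adjusted p = 0.0213 by limma. The call was lost with any 1 of WT replicate 4 and Dux KO replicate 1 left out (adjusted p = 0.0503 to 0.0565), with adjusted p of 0.00687 to 0.122 over all alternatives. Lsm1 was at 58.4, 51.7, 62.2 and 50.6 FPKM in WT replicates 1 to 4 and 63.7, 93.7, 74.1 and 64.3 FPKM in Dux KO replicates 1 to 4. All its Dux KO pools lay above all its WT pools, but the log2 fold change of 0.39 (95% interval 0.04 to 0.74) did not pass with limma (adjusted p = 0.0788), and it was called higher in 3 of 20 alternatives (0.0189 to 0.239). The ratio of Lsm1 to Lsm8, in FPKM, was 0.480 to 0.629 in WT pools against 0.875 to 1.94 in Dux KO pools, and that of Lsm3 to Lsm2 was 0.152 to 0.166 and 0.386 to 0.561. These ratios were chosen after the values were seen and carry no test. Their groups could not overlap, as both genes of each ratio were already separated, in opposite directions. Lsm4, Lsm5, Lsm6 and Lsm7 were at 3.49 to 16.1 FPKM in single pools and did not pass, with log2 fold changes from -0.38 to -0.01. The median over the 8 genes was -0.18, and it was 0.014 without both Dux KO replicates 1 and 2.

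The SF3A and SF3B complexes form the bulk of the mature U2 snRNP, and SF3B holds the branch point region of the intron. All 9 genes had a negative log2 fold change, against 51.6% of all genes. Of the 9, 5 (55.6%) were called lower and 0 higher, against 18.1% and 15.5% of all genes. Their median of -0.68 was the lowest of the 7 role groups in this fit. In 7 of the 9 the Dux KO pools lay below all WT pools, which held for 18.1% of all genes. Sf3b1 (chr1:54985169-55027481, minus strand in GRCm38), the large subunit that closes around the branch point, was at 40.1, 43.1, 42.4 and 50.7 FPKM in WT replicates 1 to 4 and 22.1, 21.3, 26.97 and 27.4 FPKM in Dux KO replicates 1 to 4. The pools of each group were close together and the groups stood apart, with a log2 fold change of -0.83 ± 0.15 SE, adjusted p = 0.00402 by limma. Sf3b6, the small subunit that touches the branch point and the most abundant SF3 gene in WT, was at 217, 211, 255 and 242 FPKM in WT replicates 1 to 4 and 131, 98.6, 170.1 and 191 FPKM in Dux KO replicates 1 to 4. The groups did not overlap, Dux KO replicate 2 was the lowest, and the log2 fold change was -0.68 ± 0.20 SE, adjusted p = 0.0243 by limma. The call was lost with any 1 of WT replicates 3 and 4 and Dux KO replicate 1 left out (adjusted p = 0.0569 to 0.0660), with adjusted p of 0.00779 to 0.151 over all alternatives.

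Sf3b4 was at 7.75, 7.42, 10.5 and 9.84 FPKM in WT replicates 1 to 4 and 5.10, 2.85, 6.15 and 3.29 FPKM in Dux KO replicates 1 to 4. It had the largest decrease of the group, -0.92 ± 0.22 SE, adjusted p = 0.0108 by limma, though 45.3% of the 50-base stretches of its exons also occur in other annotated transcripts, mainly a processed pseudogene, Gm7935. Of the SF3A subunits, Sf3a3 (chr4:124714776-124732460, plus strand in GRCm38) was at 69.3, 77.6, 68.6 and 81.7 FPKM in WT replicates 1 to 4 and 46.5, 36.6, 52.1 and 47.6 FPKM in Dux KO replicates 1 to 4. It fell without overlap, with a log2 fold change of -0.70 ± 0.15 SE, adjusted p = 0.00761 by limma. Sf3a1, a subunit that also contacts U1, was at 7.64 to 11.1 FPKM in WT against 4.05 to 6.06 FPKM in Dux KO, with a log2 fold change of -0.74 ± 0.18 SE, adjusted p = 0.0119 by limma. Sf3a2 was at 1.07 to 2.37 FPKM in WT against 0.813 to 1.43 FPKM in Dux KO and did not pass (log2 fold change -0.30).

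The remaining SF3B genes did not pass with limma. Sf3b5, a small subunit of the same core, was at 69.8 to 81.6 FPKM in WT against 47.0 to 62.2 FPKM in Dux KO, without overlap, and its log2 fold change of -0.38 had an adjusted p of 0.0579 (0.0440 to 0.347 over the alternatives, 3 of which passed). Sf3b2 was at 6.83 to 12.0 FPKM in WT against 3.95 to 6.12 FPKM in Dux KO, also without overlap, and its log2 fold change of -0.54 had an adjusted p of 0.0571 (0.0216 to 0.218 over the alternatives, 5 of which passed). Sf3b3 had a log2 fold change of -0.14 and overlapping groups.

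The U2AF heterodimer reads the pyrimidine tract and the AG at the end of the intron before U2 arrives, and its genes were low in these pools. U2af1, the small subunit, was at 3.51 to 4.60 FPKM in WT against 2.201 to 4.10 FPKM in Dux KO, with a log2 fold change of -0.40 (95% interval -0.80 to -0.01, adjusted p = 0.103 by limma). U2af2, the large subunit, was at 0.633 to 1.31 FPKM in WT against 0.649 to 1.17 FPKM in Dux KO, with a log2 fold change of -0.08 (95% interval -0.41 to 0.25). U2af1l4, a paralogue of U2af1, was at 0.786 to 1.26 FPKM in WT against 0.815 to 2.42 FPKM in Dux KO, with a log2 fold change of 0.29 (95% interval -0.14 to 0.72). The groups overlapped for all 3, none passed, and their 50-base stretches were shared with other transcripts at 21.7%, 14.7% and 42.4%. U2af1 was called lower without Dux KO replicate 3 (adjusted p = 0.0465), and over all alternatives its adjusted p was 0.0348 to 0.604.

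The PRP proteins were named from yeast mutants in precursor RNA processing. Of the 12, 5 (41.7%) were called lower and 0 higher, against 18.1% and 15.5% of all genes. Prpf38a (chr4:108563172-108579336, minus strand in GRCm38), which acts when the complex is activated and whose promoter is printed above, was at 136, 138, 125 and 124 FPKM in WT replicates 1 to 4 and 64.9, 68.0, 89.7 and 70.9 FPKM in Dux KO replicates 1 to 4. It was the most abundant PRP gene and the groups stood well apart, with a log2 fold change of -0.83 ± 0.15 SE, adjusted p = 0.00371 by limma. Its relative Prpf38b was at 5.57 to 7.82 FPKM in WT against 6.19 to 8.31 FPKM in Dux KO and did not pass, with a log2 fold change of 0.09 (95% interval -0.26 to 0.44).

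Of the 5 PRP genes of the U4/U6.U5 tri-snRNP, Prpf3, Prpf6 and Prpf31 were called lower, and Prpf4 and Prpf8 did not pass. Prpf31, which binds U4 RNA together with Snu13, was at 7.67, 10.4, 14.8 and 12.8 FPKM in WT replicates 1 to 4 and 5.61, 2.81, 7.58 and 6.56 FPKM in Dux KO replicates 1 to 4. Its log2 fold change was -0.93 ± 0.27 SE, adjusted p = 0.0218 by limma, but WT replicate 1 lay only just above Dux KO replicate 3. The call was lost with any 1 of WT replicates 3 and 4 left out (adjusted p = 0.0552 to 0.0589), with adjusted p of 0.00259 to 0.155 over all alternatives. Prpf3, a U4/U6 protein, was at 9.66, 13.3, 10.6 and 13.3 FPKM in WT replicates 1 to 4 and 6.41, 5.98, 8.63 and 7.42 FPKM in Dux KO replicates 1 to 4. The groups did not overlap, and the log2 fold change was -0.65 ± 0.17 SE, adjusted p = 0.0163 by limma. Prpf6, which bridges U5 and U4/U6, was at 7.65 to 9.78 FPKM in WT against 4.77 to 6.56 FPKM in Dux KO, with a log2 fold change of -0.49 ± 0.16 SE, adjusted p = 0.0345 by limma.

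The call on Prpf6 was lost with any 1 of WT replicates 3 and 4 and Dux KO replicates 1 and 4 left out (adjusted p = 0.0590 to 0.102), with adjusted p of 0.0181 to 0.150 over all alternatives. Prpf8, the scaffold at the centre of the spliceosome, was at 3.65, 4.40, 6.71 and 6.76 FPKM in WT replicates 1 to 4 and 5.69, 3.91, 3.98 and 8.85 FPKM in Dux KO replicates 1 to 4. The pools of the groups were interleaved, and the log2 fold change was 0.02 (95% interval -0.53 to 0.58, adjusted p = 0.945 by limma), with its sign turning in 5 of 20 alternatives. Prpf4, the partner of Prpf3, was at 9.28 to 15.2 FPKM in WT against 8.75 to 9.61 FPKM in Dux KO, a log2 fold change of -0.47 that missed the threshold with limma (adjusted p = 0.0554) and passed in 5 of 20 alternatives (0.0203 to 0.185 over all of them), among them without WT replicate 1 (adjusted p = 0.0203). Among the others, Prpf39, a U1-associated protein, was called lower at 6.75 to 8.05 FPKM in WT against 4.23 to 5.86 FPKM in Dux KO (-0.46 ± 0.15 SE, adjusted p = 0.0380 by limma), and that call was lost with any 1 of WT replicates 1, 2, 3 and 4 and Dux KO replicates 1 and 4 left out (adjusted p = 0.0577 to 0.0876), with adjusted p of 0.0107 to 0.136 over all alternatives. Prpf18, which acts at the later catalytic step, was at 29.9 to 47.4 FPKM in WT against 24.1 to 35.1 FPKM in Dux KO, with a log2 fold change of -0.39 (adjusted p = 0.105 by limma). Prpf4b and Prpf19 did not pass, with log2 fold changes of 0.14 and -0.09.

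The SR proteins, which carry RNA-recognition domains and arginine-serine tails, had 2 of 9 genes called lower and 0 higher. This was 22.2% lower, against 18.1% of all genes. The median WT level of the 9 was 28.7 FPKM, and 31.9% of all genes from 20 to 80 FPKM were called lower. Srsf7, the most abundant of them, was at 127, 120.0, 129 and 170.4 FPKM in WT replicates 1 to 4 and 119, 133, 162 and 154 FPKM in Dux KO replicates 1 to 4. The groups overlapped, and the log2 fold change was 0.06 (95% interval -0.30 to 0.41, adjusted p = 0.800 by limma). Srsf5 (chr12:80945504-80950507, plus strand in GRCm38) was at 44.1, 49.4, 53.7 and 54.4 FPKM in WT replicates 1 to 4 and 27.7, 31.3, 40.6 and 37.4 FPKM in Dux KO replicates 1 to 4. Each WT pool was above each Dux KO pool, with a log2 fold change of -0.55 ± 0.16 SE, adjusted p = 0.0214 by limma. The call was lost with any 1 of WT replicate 4 and Dux KO replicate 1 left out (adjusted p = 0.0612 to 0.0687), with adjusted p of 0.00661 to 0.177 over all alternatives.

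Srsf6 was at 17.2, 17.3, 24.1 and 26.6 FPKM in WT replicates 1 to 4 and 15.4, 12.6, 13.5 and 16.4 FPKM in Dux KO replicates 1 to 4. WT replicates 1 and 2 lay just above the highest Dux KO pool, and the log2 fold change was -0.51 ± 0.18 SE, adjusted p = 0.0476 by limma. That call was lost with any 1 of WT replicates 3 and 4 and Dux KO replicates 1, 2 and 3 left out (adjusted p = 0.0800 to 0.135), with adjusted p of 0.0195 to 0.207 over all alternatives. Srsf3 was at 8.76 to 10.97 FPKM in WT against 5.60 to 8.27 FPKM in Dux KO and Srsf10 at 25.1 to 30.6 FPKM in WT against 18.6 to 24.9 FPKM in Dux KO, both without overlap. Their log2 fold changes of -0.44 and -0.40 missed the threshold with limma (adjusted p = 0.0511 and 0.0525), and each passed in 6 of 20 alternatives, with adjusted p of 0.0288 to 0.231 and 0.0330 to 0.270 over all of them. Srsf3 was called without Dux KO replicate 2 (adjusted p = 0.0455) and Srsf10 without Dux KO replicate 3 (adjusted p = 0.0429). Srsf2, Srsf4, Srsf9 and Srsf11 did not pass, with log2 fold changes of -0.32, -0.03, -0.01 and -0.17. The median over the 9 genes was -0.32, and it was -0.15 without WT replicate 3.

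The hnRNP proteins, abundant nuclear proteins that coat nascent RNA, had 6 of 19 genes (31.6%) called lower and 0 higher, against 18.1% and 15.5% of all genes. Hnrnpm was at 10.3, 11.5, 15.8 and 15.6 FPKM in WT replicates 1 to 4 and 6.81, 6.34, 8.44 and 7.67 FPKM in Dux KO replicates 1 to 4. It fell without overlap, with a log2 fold change of -0.77 ± 0.18 SE, adjusted p = 0.00975 by limma, and 13.5% of its 50-base stretches were shared with March2, which overlaps it on the same strand and was at 3.88 ± 1.00 FPKM in WT against 4.49 ± 0.445 FPKM in Dux KO. Hnrnpk, which binds cytosine-rich RNA, was at 25.9, 28.8, 30.2 and 28.0 FPKM in WT replicates 1 to 4 and 21.2, 15.9, 22.2 and 18.9 FPKM in Dux KO replicates 1 to 4. The groups did not overlap, with a log2 fold change of -0.52 ± 0.15 SE, adjusted p = 0.0224 by limma. The call was lost with any 1 of WT replicates 3 and 4 left out (adjusted p = 0.0503 to 0.0531), with adjusted p of 0.00592 to 0.124 over all alternatives.

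Of the genes of the H and F family, which bind runs of guanine, Hnrnph2 and Hnrnph3 were called lower. Hnrnph3 was at 34.1, 28.1, 30.1 and 23.4 FPKM in WT replicates 1 to 4 and 18.3, 17.1, 22.7 and 20.4 FPKM in Dux KO replicates 1 to 4. The groups did not overlap, but WT replicate 4 lay close above the highest Dux KO pool, and the log2 fold change was -0.53 ± 0.16 SE, adjusted p = 0.0258 by limma. Hnrnph2 was at 5.42, 4.25, 7.85 and 7.28 FPKM in WT replicates 1 to 4 and 2.33, 2.31, 3.69 and 5.27 FPKM in Dux KO replicates 1 to 4. It was the only called gene of the 72 whose groups overlapped, with a log2 fold change of -0.73 ± 0.24 SE, adjusted p = 0.0389 by limma. The call on Hnrnph3 was lost with any 1 of WT replicates 1 and 3 and Dux KO replicates 1 and 2 left out (adjusted p = 0.0545 to 0.0706), with adjusted p of 0.0100 to 0.193 over all alternatives. That on Hnrnph2 was lost with any 1 of WT replicates 1, 3 and 4 and Dux KO replicates 1, 2 and 3 left out (adjusted p = 0.0544 to 0.107), with adjusted p of 0.0108 to 0.356 over all alternatives. Hnrnph1 and Hnrnpf did not pass, with log2 fold changes of -0.36 and -0.46, and were called lower without WT replicate 3 (adjusted p = 0.0409) and without Dux KO replicate 4 (adjusted p = 0.0271). Over all alternatives their adjusted p was 0.0409 to 0.513 and 0.0271 to 0.421, and 61.9% of the 50-base stretches of Hnrnpf were shared with other transcripts.

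Hnrnpc, which binds uridine tracts and was the most abundant hnRNP gene, was at 149.9, 114, 185 and 166 FPKM in WT replicates 1 to 4 and 101, 76.5, 115 and 135 FPKM in Dux KO replicates 1 to 4. The groups overlapped, and the log2 fold change of -0.53 missed the threshold with limma (adjusted p = 0.0625, 0.0128 to 0.375 over the alternatives, 6 of which passed). It was called lower with any 1 of WT replicate 2 and Dux KO replicate 4 left out (adjusted p = 0.0353 to 0.0365). Hnrnpab was at 81.6 to 105 FPKM in WT against 58.7 to 80.05 FPKM in Dux KO and just passed (-0.43 ± 0.15 SE, adjusted p = 0.0492 by limma). Leaving out any of the 8 pools ended that call (adjusted p = 0.0518 to 0.130), and over all alternatives the adjusted p was 0.0319 to 0.353. Hnrnpr was at 2.55 to 2.75 FPKM in WT against 1.55 to 1.99 FPKM in Dux KO, with a log2 fold change of -0.41 ± 0.14 SE, adjusted p = 0.0376 by limma, and the call was lost with any 1 of WT replicates 1, 2, 3 and 4 and Dux KO replicates 1, 3 and 4 left out (adjusted p = 0.0589 to 0.103), with adjusted p of 0.00205 to 0.157 over all alternatives. The 13 hnRNP genes that did not pass had log2 fold changes from -0.53 to 0.38. Hnrnpa1, a core hnRNP protein, was at 9.78 to 12.0 FPKM in WT against 7.23 to 8.78 FPKM in Dux KO without overlap, with a log2 fold change of -0.36 (adjusted p = 0.0743 by limma), and Hnrnpa2b1 was at 46.6 to 71.0 FPKM in WT against 39.2 to 59.3 FPKM in Dux KO, with -0.30.

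Summed levels were lower on average in Dux KO for each of the 7 role groups. The 9 SF3 genes together were at 456 ± 31.9 FPKM in WT against 294 ± 56.0 FPKM in Dux KO (SD, n = 4), 64.5% of WT. Much of that sum was Sf3b6, at 232 ± 20.8 FPKM in WT against 148 ± 41.2 FPKM in Dux KO. The 12 PRP genes were at 275 ± 14.9 FPKM in WT against 184 ± 15.2 FPKM in Dux KO, 66.9% of WT. Much of that sum was Prpf38a, at 130 ± 7.44 FPKM in WT against 73.4 ± 11.1 FPKM in Dux KO, and 9 of the 12 had a negative log2 fold change. The 12 snRNP genes were at 1059.7 ± 55.3 FPKM in WT against 808 ± 57.2 FPKM in Dux KO, 76.2% of WT. In these 3 groups every Dux KO pool was below every WT pool. The 19 hnRNP genes were at 490.4 ± 52.1 FPKM in WT against 377 ± 52.6 FPKM in Dux KO, 76.9% of WT, and Dux KO replicate 4 reached above WT replicate 2. The 8 Lsm genes were at 383 ± 20.7 FPKM in WT against 321 ± 35.7 FPKM in Dux KO (84.0%) and the 9 SR genes at 339 ± 38.7 FPKM in WT against 301 ± 27.4 FPKM in Dux KO (88.9%), both with overlap between groups. The 3 U2AF genes summed to 6.12 ± 0.285 FPKM in WT against 5.32 ± 0.394 FPKM in Dux KO. All 72 genes summed to 3009 ± 177 FPKM in WT against 2291 ± 222 FPKM in Dux KO, 76.1% of WT, while the sum over all genes tested was 86.9% of WT.

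**Figure D4:**
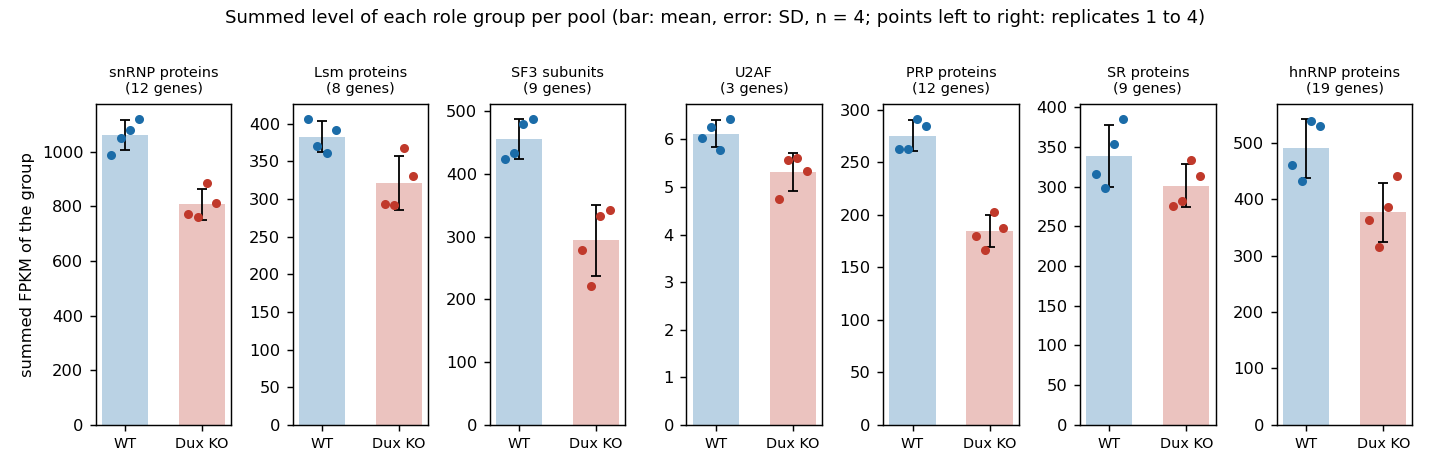
Summed FPKM of each role group in each pool (points, replicates 1 to 4 from left to right), with the mean as a bar and the SD as an error bar (n = 4), WT in blue and Dux KO in red, each panel with its own axis from 0. Dux KO points lie below all WT points for snRNP, SF3, U2AF and PRP genes and overlap them for Lsm, SR and hnRNP genes.

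Pools of a group did not stand alike. Dux KO replicate 2 was the lowest Dux KO pool for 34 of the 72 genes and Dux KO replicate 1 for 21, while replicates 3 and 4 were the highest for 28 and 26. Among WT pools, replicates 3 and 4 were the highest for 28 and 26 of the genes, and replicates 1 and 2 the lowest for 24 and 25. The labels give no batch or date, so these differences could not be set against a batch.

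**Figure D5:**
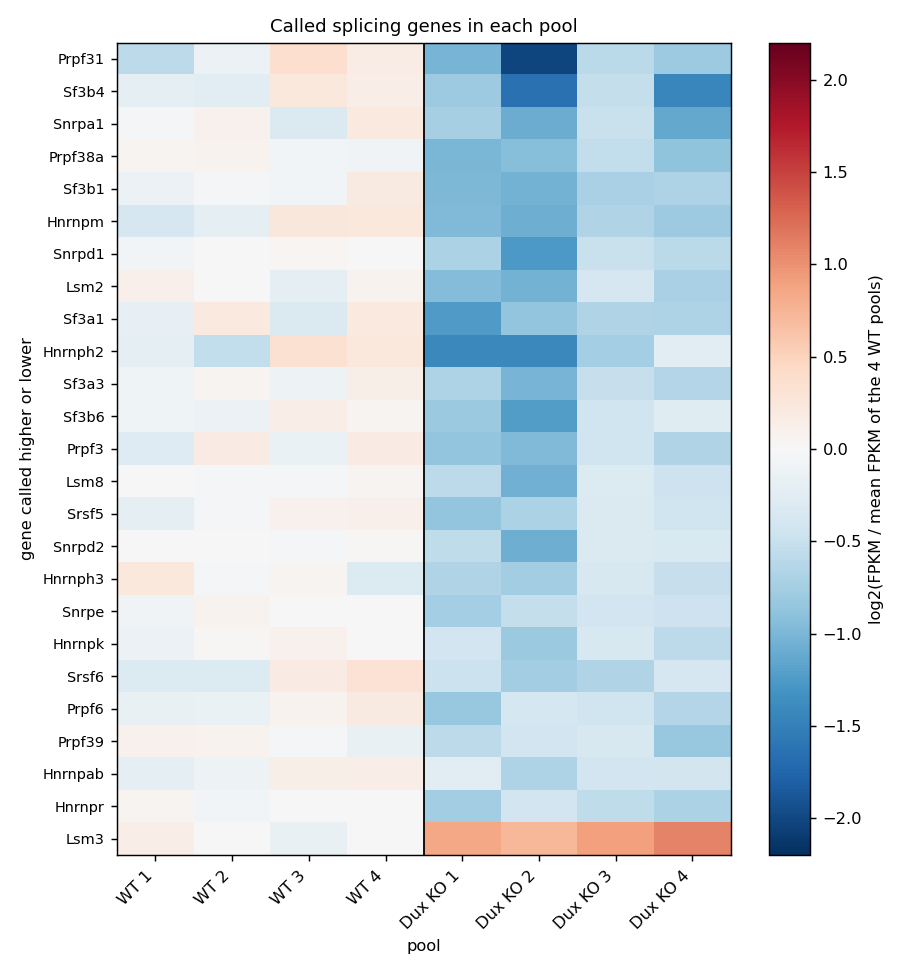
Log2 of FPKM over the mean of the 4 WT pools (colour, red above and blue below) for the 25 called genes (rows, ordered by fold change) in each pool (columns, WT left and Dux KO right of the line). The 24 genes called lower are blue in Dux KO pools, most strongly in replicate 2 for many of them, and Lsm3 in the bottom row is red in all 4.

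Splicing genes outside the name rule were read from lists of spliceosome, assembly and regulator genes. Of 156 listed symbols, some of them older names of a gene also listed, 149 had a row and 146 were tested. Of these 52 were called lower and 3 higher, against 18.1% and 15.5% of all genes, with a median log2 fold change of -0.32. The median WT level of the 149 was 13.9 FPKM against 5.23 FPKM for all genes tested, and abundant genes were called lower more often over the whole table. Among proteins of the catalytic steps and the PRP19 complex, 18 of 34 were called lower and 0 higher (median -0.54). Here and in the lists below with 0 higher by limma, edgeR also called 0 higher, and DESeq2 and an unadjusted p under 0.05 gave 1, an SR-related gene. Ik, a protein of the complex that precedes activation, was at 67.1, 86.1, 61.6 and 97.3 FPKM in WT replicates 1 to 4 and 26.1, 22.6, 42.9 and 32.7 FPKM in Dux KO replicates 1 to 4. The groups stood wide apart, with a log2 fold change of -1.32 ± 0.22 SE, adjusted p = 0.00309 by limma. Slu7, which acts in the choice of the end of the intron, fell from 84.3 ± 11.6 FPKM to 41.9 ± 10.6 FPKM (-1.01 ± 0.18 SE, adjusted p = 0.00420 by limma).

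The list of SMN complex and snRNP assembly genes also held Lsm10, Lsm11, Lsm12, Lsm14a and Lsm14b. Of its genes 9 of 20 were called lower, Lsm12 among them, and 0 higher (median -0.42). Coil, the scaffold of the Cajal body, where snRNPs mature, was at 26.9, 26.1, 25.3 and 28.9 FPKM in WT replicates 1 to 4 and 10.4, 8.40, 13.5 and 10.4 FPKM in Dux KO replicates 1 to 4. Snupn, the adaptor that carries new snRNPs into the nucleus, was at 620.3, 519, 659 and 754 FPKM in WT replicates 1 to 4 and 303, 196, 346 and 332 FPKM in Dux KO replicates 1 to 4. Both fell without overlap, with log2 fold changes of -1.26 ± 0.16 SE, adjusted p = 0.00202, and -1.13 ± 0.20 SE, adjusted p = 0.00393, by limma. Of other snRNP-specific proteins, 8 of 28 were called lower and 0 higher, among them Snu13, which binds U4 RNA with Prpf31, from 101 ± 8.36 FPKM to 51.8 ± 14.0 FPKM (-0.99 ± 0.20 SE, adjusted p = 0.00647 by limma), and Snrnp35 of the minor spliceosome, from 16.3 ± 3.02 FPKM to 8.79 ± 1.14 FPKM (-0.81 ± 0.17 SE, adjusted p = 0.00702 by limma).

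SR kinases and SR-related proteins had 9 of 22 called lower and 0 higher. Tra2b, an SR-like activator of exons, fell from 15.9 ± 1.57 FPKM to 7.62 ± 1.67 FPKM (-0.98 ± 0.17 SE, adjusted p = 0.00360 by limma), and Srek1 from 10.02 ± 1.15 FPKM to 5.68 ± 0.956 FPKM (-0.73 ± 0.16 SE, adjusted p = 0.00875 by limma). The exon junction complex and export genes had 5 of 13 called lower and 0 higher, among them Nxf1, the mRNA export receptor (-0.96, adjusted p = 0.00458 by limma), and Eif4a3, the helicase of the complex (-0.84, adjusted p = 0.00975 by limma). Other splicing regulators had 3 called lower and 3 higher of 29 tested, with a median of -0.10. Ptbp2 and Ptbp3, paralogues of the repressor Ptbp1, were among the higher ones, at 7.95 ± 1.10 FPKM and 11.1 ± 1.79 FPKM in WT against 14.5 ± 3.16 FPKM and 18.6 ± 3.83 FPKM in Dux KO (0.78 ± 0.18 SE, adjusted p = 0.00957, and 0.69 ± 0.18 SE, adjusted p = 0.0172, by limma). The call on Ptbp3 was lost with any 1 of WT replicate 4 and Dux KO replicate 1 left out (adjusted p = 0.0523 to 0.0527, 0.00103 to 0.173 over all alternatives). Celf2, the other regulator called higher, was at 2.14 ± 0.241 FPKM in WT against 3.46 ± 0.746 FPKM in Dux KO (0.50 ± 0.16 SE, adjusted p = 0.0367 by limma). Its call was lost with any 1 of WT replicates 1, 2 and 4 and Dux KO replicates 1, 3 and 4 left out (adjusted p = 0.0509 to 0.0906, 0.00109 to 0.138 over all alternatives). Rbm5 and Khdrbs1 were among the lower ones, with log2 fold changes of -0.61 ± 0.15 SE, adjusted p = 0.0141, and -0.56 ± 0.15 SE, adjusted p = 0.0162, by limma. Without both Dux KO replicates 1 and 2 the calls on Ptbp2, Ptbp3, Celf2, Rbm5, Khdrbs1, Eif4a3, Srek1 and Snrnp35 were lost (adjusted p = 0.0724 to 0.173 by limma).

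Reads of some of these genes may be hard to assign, since how reads were counted, on which strand and with what treatment of repeated sequence is not given in the sources used here. At least 10% of the 50-base stretches of the exons occurred in another annotated transcript for 24 of the 72 genes, of which 7 were called lower. Of the other 48, 17 were called lower and 1 higher. The share was highest for Snrpf, at 89.5%, mostly with Ccdc38 on the other strand, which was at 0.252 ± 0.0819 FPKM in WT against 0.834 ± 0.352 FPKM in Dux KO. Ccdc38 was itself called higher (log2 fold change 0.53, adjusted p = 0.0183 by limma). Of called genes beyond those already given, Hnrnpab shared 23.8%, nearly all with Phykpl on the other strand (1.30 ± 0.437 FPKM in WT against 1.38 ± 0.264 in Dux KO). Hnrnpk shared 17.8%, mainly with the pseudogene Gm7964, which has its own row at 4.96 ± 0.954 FPKM in WT against 3.18 ± 0.842 in Dux KO. Prpf31 shared 16.1% with Gm15927 on the other strand, at 0.916 ± 0.383 and 1.25 ± 0.519 FPKM. Hnrnph2 shared 15.9% and Srsf5 10.1%, mainly with processed pseudogenes. Values of these genes are uncertain to the extent that reads were split or dropped, and the share of the results that this touches was not tested.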

How the data were processed

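RNA-seq of 8 pools of 2-cell mouse embryos was grouped by the sample labels. The authors deposited genes in FPKM and repeats in FPM, a signal scaled to library size, each with their log2 fold change and adjusted p-value. Per the submitters' processing notes, the tools were Trimmomatic 0.32, STAR 2.6.1a and SAMtools 1.7 on GRCm38 (mm10). The sources used here do not give the read counter, annotation, strand setting or test. The deposited FPKM stepped by a fixed unit per gene and library, from which whole reads were recovered (100% of values within 0.05). The relative unit per read was 0.974 to 1.12 in WT pools and 0.860 to 0.971 in Dux KO pools, and did not follow read totals. The FPKM may therefore carry size factors, and a scaling by read totals was not run. Numeric columns left unmapped numbered 0, and coordinates come from GENCODE M21, which held 13100 of 13101 identifiers.

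The splicing genes, role groups and lists were chosen with earlier results of these data known. Genes averaging at least 0.5 FPKM were fitted as log2(FPKM + 1) by limma 3.58.1 (R 4.3.3) with trended and robust moderation, no covariate and all 8 samples. Benjamini-Hochberg adjustment ran over all 12434 genes, and tests were two-sided. The procedure was run on simulated counts drawn independently for each pool. They held no effects shared by the genes of a pool, so they cannot show how calls behave under such effects. In each role group at most 4 called genes per direction and the 2 most abundant are named, then all others called, and at most 2 called per direction from each list. Values of 1 splicing gene are not reported here. Further genes are named to complete a complex and were chosen after their values were seen. Alternatives were another pseudocount (0.1), dropping the filter or raising it to 5 FPKM, quantile and median-of-ratios scaling, replicate number as a block, limma with neither trend nor robust moderation, the authors' deposited table, edgeR 4.0.16 and DESeq2 1.42.0 on recovered reads, each pool left out, and Dux KO replicates 1 and 2 or 3 and 4 left out together. Shared sequence is the percent of 50-base stretches of a gene's exons that occur in transcripts of other genes on either strand. Recovered reads of same-group pools differed beyond sampling noise, with a chi-square of 13.8 to 117 for each degree of freedom.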

Additional observations from a re-analysis of the deposited data

Results flagged for a closer look

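Of 158 sets of 4 pools examined (72 splicing genes and 7 summed groups, in WT and in Dux KO), 4 held a value far from the other pools of its group, where chance marks about 1 in 20, or 7.9. Snrpa was at 27.3 FPKM in Dux KO replicate 2 against 40.8 to 42.8 FPKM in the other Dux KO pools. Sf3b2 was at 12.0 FPKM in WT replicate 4 against 6.83 to 7.02 FPKM in the other WT pools. Hnrnpl was at 4.35 FPKM in WT replicate 3 against 2.84 to 3.07 FPKM, and Hnrnpul1 at 2.07 FPKM in WT replicate 2 against 1.30 to 1.401 FPKM.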

How the results depend on the processing

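Over 20 alternatives, the 46 genes named by rule or called gave 781 values on the same side of the threshold and in the same direction, 118 that no longer passed, 12 that newly passed and 4 that changed sign. The sign changes were in genes that had not passed: U2af1l4 without both Dux KO replicates 1 and 2 (-0.051), and Srsf7 (-0.00045 without WT replicate 2, -0.0102 without Dux KO replicate 3, -0.11 with both Dux KO replicates 3 and 4 left out). With 1 pool left out Srsf7 ran from -0.0102 to 0.17.

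All genes changed numbered 4182. With 1 pool left out they numbered 2527 (WT replicate 4) to 4045, with 2686 for Dux KO replicate 1. When Dux KO replicates 1 and 2 were both absent 800 were called, and 3934 when replicates 3 and 4 were both absent. Splicing genes called lower numbered 24, and 12 to 23 with 1 pool left out. They numbered 3 without both Dux KO replicates 1 and 2, and 23 without both Dux KO replicates 3 and 4. Those called higher numbered 1, and 3 after quantile normalization and 2 with edgeR, with DESeq2 and without both Dux KO replicates 3 and 4. Fewer pools leave fewer residual degrees of freedom, and which pool was left out also mattered.

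After quantile normalization the median log2 fold change was -0.18 for snRNP, -0.49 for SF3, -0.18 for U2AF and -0.19 for SR genes. Without both Dux KO replicates 1 and 2 it was -0.21 for snRNP, 0.014 for Lsm and -0.49 for SF3 genes, and without both Dux KO replicates 3 and 4 it was -0.53 for snRNP and -0.83 for SF3 genes. U2AF stood at -0.18 in the authors' deposited table. With 1 pool left out, medians ran from -0.44 to -0.24 for snRNP, from -0.27 to -0.09 for Lsm, from -0.76 to -0.60 for SF3, from -0.16 to 0.01 for U2AF, from -0.48 to -0.36 for PRP, from -0.40 to -0.15 for SR and from -0.40 to -0.24 for hnRNP genes. At a mean of at least 5 FPKM no U2AF gene was left to give a value. The cause of these shifts was not tested.

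The labels do not say whether replicate numbers pair the pools. Deviations of pools with the same number correlated at -0.12, 0.33, -0.06 and 0.30 for numbers 1 to 4. Those of pools with different numbers correlated at -0.40 to 0.27, and pairing was not tested. With the replicate block 4732 genes changed, and 28 splicing genes were called lower and 1 higher, against 20.8% and 17.2% of all genes. The lowest reads of a splicing gene in a pool were 16, and changes in the rarest genes may not have been detectable.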
